A study of Mus musculus with 2 samples.

Results

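The chromatin of 10 marker genes of brain blood vessels was described in the left cerebral cortex of newborn mice. Endothelial cells were represented by 7 of them, Slc2a1, Cldn5, Pecam1, Tek, Tie1, Emcn and Sox18, and pericytes by 3, Pdgfrb, Vtn and Rgs5. The genes were chosen by name and set against all 21938 protein-coding genes of the GENCODE M21 basic annotation (mm10, GRCm38). The locus of a gene was its gene body plus 50 kb to either side. The whole cortex of the left hemisphere was taken from female B6CASTF1/J mice, F1 hybrids of C57BL/6J and CAST/EiJ, at 4 days after birth and profiled by DNase-seq, an assay in which DNase I cuts accessible DNA and regions of frequent cutting are called as DNase I hypersensitive sites (DHSs). The single group held 2 animals with a library each, replicate 1 and replicate 2, and no treatment, genotype or age was contrasted.

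Brain capillaries are lined by endothelial cells joined by tight junctions, which form the blood-brain barrier and carry glucose and amino acids into the tissue through dedicated transporters. Pericytes lie on the outer face of these capillaries within the basement membrane, and their recruitment depends on platelet-derived growth factor B from the endothelium acting on its receptor on pericytes. In the first days after birth the vessels of the rodent cortex are still sprouting and branching. Vascular cells are a minority in whole cortex, so in these bulk libraries a site open in few cells and a site weakly open in many cells cannot be told apart.

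Each library came with 2 lists of DHS calls, of which the shorter is here called stricter and the longer more lenient. Each call had the authors' signal value, a tag density whose scaling is not stated. The stricter lists held 59355 calls in replicate 1 and 46566 in replicate 2, and the lenient lists 92872 and 81087. The median signal value of the stricter calls was 0.556 in replicate 1 and 1.45 in replicate 2, so values are given for each library and ranked only within it. Marker lists of other cell types were chosen with earlier results of these data known. Of these, cortical neuron markers had a promoter call in both stricter lists at 6 of 10 genes, against 55.6% of all protein-coding genes. Tubb3 was among them, and Slc17a7 had no call in either library. Microglia markers had one at 1 of 8 genes, meningeal fibroblast markers at 2 of 8 and erythroid markers at 1 of 8, against the same share. In both stricter lists together the neuron count lay near that share. It was 6 of 10 in stricter replicate 1 alone, against 57.0% of all genes, and 9 of 10 in stricter replicate 2 alone, against 60.2%. In the lenient lists of both libraries it was 8 of 10, against 61.4% of all genes. There the microglia, meningeal fibroblast and erythroid markers had 1, 3 and 2 of 8. The share of 55.6% depends on the CpG ratio described below, at 90.6% of CpG-richer and 23.9% of CpG-poorer genes. CpG-richer were 5 of the 10 neuron markers, 1 of 8 microglia, 1 of 8 meningeal fibroblast and 0 of 8 erythroid markers. Of these CpG-richer markers 3, 1, 1 and 0 had a promoter call in both stricter lists, in the same order.

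Of the 10 vascular genes, 1 had a promoter DHS in the stricter lists of both libraries, against 55.6% of all protein-coding genes. This gene was Slc2a1. A promoter call lay within 1 kb of a transcription start site (TSS), and the calls of the libraries had to overlap by at least 1 bp. Slc2a1 was likewise the only member with a promoter call in replicate 1 alone (57.0% of all genes) and in replicate 2 alone (60.2% of all genes). In the lenient lists Rgs5 joined it, making 2 of 10 genes with overlapping calls in both libraries, against 61.4% of all genes. The lenient list of replicate 1 held a promoter call at 4 members, Slc2a1, Sox18, Pdgfrb and Rgs5 (63.2% of all genes), and that of replicate 2 at 4 members, Slc2a1, Cldn5, Sox18 and Rgs5 (64.8% of all genes). Pecam1, Tek, Tie1, Emcn and Vtn had no promoter call in any list.

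**Figure D1:**
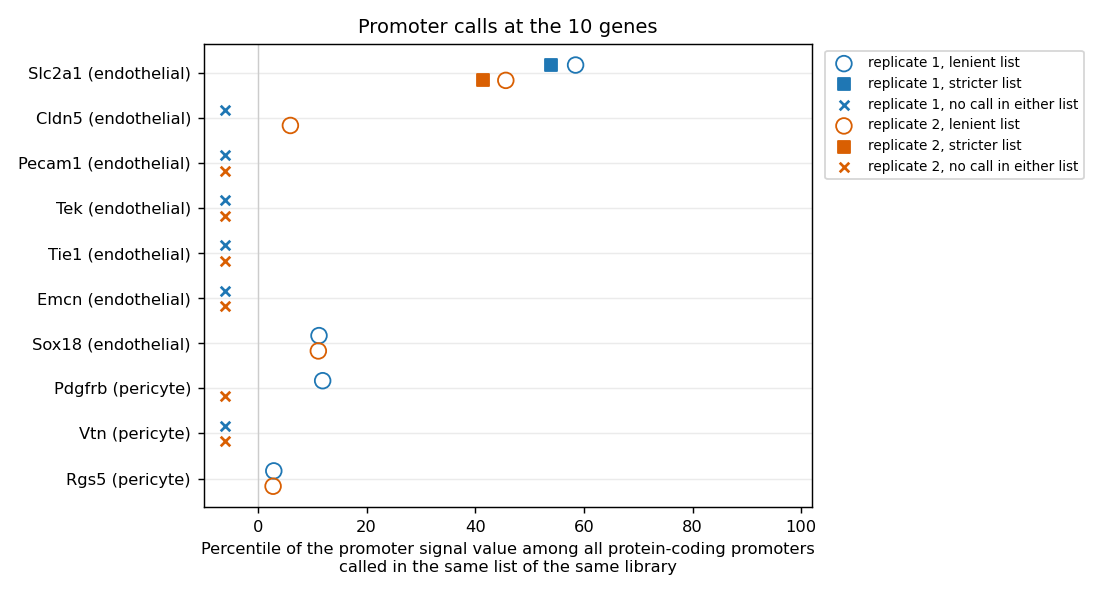
Promoter calls of the 10 genes, with the percentile of the promoter signal value among all protein-coding promoters called in the same list and library on the x axis, squares for stricter lists, open circles for lenient lists and crosses for no call. Slc2a1 sits at percentiles 54.0 and 41.5 in the stricter lists, and the lenient calls at Cldn5, Sox18, Pdgfrb and Rgs5 all lie between percentiles 2.79 and 11.9.

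The members differ in the base composition of their promoters. The observed to expected ratio of CpG dinucleotides within 500 bp of the most upstream TSS was 0.808 at Slc2a1 and 0.770 at Sox18, and between 0.255 at Vtn and 0.508 at Cldn5 at the other 8 genes. With a limit of 0.6, Slc2a1 and Sox18 were the CpG-richer members. Stricter promoter calls of both libraries were present at 1 of these 2 genes, against 90.6% of CpG-richer genes in all, and at 0 of the 8 CpG-poorer members, against 23.9% of CpG-poorer genes in all. In the lenient lists the counts were 1 of 2, against 95.4%, and 1 of 8 (Rgs5), against 30.7%. Sox18 was thus a CpG-richer gene without a shared promoter call in either kind of list.

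Footprints are short stretches inside cut regions that DNase I cut less than their surroundings. The deposited footprint intervals carry no strength of their own, so they are counted only. Footprints of both libraries lay in the promoter window of 1 of the 10 genes, Slc2a1, against 60.1% of all protein-coding genes. Cldn5, with 1 footprint, and Sox18, with 3, had footprints of replicate 2 alone, and Rgs5, with 2, of replicate 1 alone. With Slc2a1 this made 3 of 10 members in replicate 2, against 63.7% of all genes. In replicate 1 it made 2 of 10, against 61.5%.

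Slc2a1 encodes the glucose transporter GLUT1 of the blood-brain barrier, which is also present in astrocytes and many other cells. The gene lies at chr4:119108711-119137983 on the plus strand. Its promoter DHS was called at chr4:119108501-119109040 with a signal value of 1.64 in replicate 1 and at chr4:119108561-119108920 with 3.38 in replicate 2. These values stood at percentiles 88.0 and 79.5 of all calls of their lists, but near the middle of called promoters, at percentiles 54.0 and 41.5. A second DHS directly downstream, in an intron of the gene (chr4:119109041-119109412), had 1.15 in replicate 1 and 2.11 in replicate 2. The promoter window held 8 footprints covering 78 bases in replicate 1 and 11 covering 132 bases in replicate 2.

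The 200 bases upstream of the Slc2a1 TSS (chr4:119108511-119108710) are shown because this is the only promoter of the set open in both stricter lists. The windows of the same length at Cldn5 (chr16:18776647-18776846) and Tek (chr4:94739089-94739288) stand beside it as promoters without a call there, a choice made after their values were seen. All are on the plus strand of the C57BL/6J reference, from the RefSeq GRCm38.p6 genome, and lie outside exons. Capitals mark bases inside a footprint of both libraries.
Slc2a1 upstream: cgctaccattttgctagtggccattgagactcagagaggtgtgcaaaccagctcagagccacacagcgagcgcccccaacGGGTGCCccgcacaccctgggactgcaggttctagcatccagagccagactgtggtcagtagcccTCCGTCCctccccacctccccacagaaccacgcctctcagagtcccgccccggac
Cldn5 upstream: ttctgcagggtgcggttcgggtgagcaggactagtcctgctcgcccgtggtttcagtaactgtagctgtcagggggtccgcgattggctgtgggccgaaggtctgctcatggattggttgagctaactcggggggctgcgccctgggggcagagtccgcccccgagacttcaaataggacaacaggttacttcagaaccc
Tek upstream: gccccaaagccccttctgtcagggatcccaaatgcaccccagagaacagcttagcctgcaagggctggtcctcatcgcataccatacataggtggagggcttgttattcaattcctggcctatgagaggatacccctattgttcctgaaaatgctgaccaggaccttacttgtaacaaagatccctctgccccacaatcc
Both libraries shared 14 footprinted bases upstream of Slc2a1 and 0 upstream of Cldn5 and of Tek. Footprints lie inside cut regions, and the Cldn5 and Tek windows were chosen for having no call. Their 0 values follow from that choice and are no contrast between the sequences. The Slc2a1 window had 63.5% G or C and 9 CG dinucleotides, and the Cldn5 window was as GC-rich, with 60.5% and 11. The Tek window had 51.5% and 1. The letters GGGCGGG, a core recognised by SP and KLF factors, were found on either strand in the Slc2a1 window and in the window upstream of Sox18, which makes 2 of the 10 genes, against 28.6% of all upstream windows of protein-coding genes.

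Away from its promoter the Slc2a1 locus held 2 distal DHSs shared by both stricter lists. Distal means more than 1 kb from every TSS of a protein-coding gene, and a shared DHS is the union of overlapping calls of the libraries. The site at chr4:119105806-119106020, 2.80 kb upstream of the TSS, had 0.752 in replicate 1 and 1.00 in replicate 2. The site at chr4:119167741-119167940 lay in intergenic sequence 59.1 kb downstream of the TSS and 5.92 kb from Zfp691, the nearest start site, with 1.13 and 1.90. Calls 33.9 kb downstream in replicate 1 (0.715) and 33.7 kb downstream in replicate 2 (2.60) abutted end to end without a shared base, so they did not count as shared.

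The downstream site is shown as the shared distal DHS of Slc2a1 with the highest mean percentile over the libraries. Its bases inside footprints of both libraries fell on 1 stretch. The second sequence is the shared distal DHS of Cldn5, and capitals again mark bases inside a footprint of both libraries (RefSeq GRCm38.p6, plus strand).
Slc2a1 distal, chr4:119167741-119167940: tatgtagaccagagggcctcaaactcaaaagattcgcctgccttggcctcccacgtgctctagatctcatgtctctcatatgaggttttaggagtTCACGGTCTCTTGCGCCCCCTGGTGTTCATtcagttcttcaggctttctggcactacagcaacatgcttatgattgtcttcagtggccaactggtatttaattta
Cldn5 distal, chr16:18798934-18799133: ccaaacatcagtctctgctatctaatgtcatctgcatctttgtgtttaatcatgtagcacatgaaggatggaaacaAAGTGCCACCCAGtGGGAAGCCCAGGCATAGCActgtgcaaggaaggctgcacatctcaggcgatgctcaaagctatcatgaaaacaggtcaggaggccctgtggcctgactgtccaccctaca
In the Slc2a1 site the 30 capital bases hold ACACCAGGGGGC on the minus strand, 1 mismatch away from the consensus of CTCF, a zinc finger protein that binds insulators and loop anchors. In the Cldn5 site CCACTGGGTGGC on the minus strand also has 1 mismatch, and 11 of its 12 bases were footprinted in both libraries. The Cldn5 site also holds GTGGGAA, the core read by RBPJ, the DNA-binding partner of Notch receptors. This core occurred in 5.33% of all shared distal DHSs. Its letters in the Cldn5 site overlap the CTCF match, so the footprinted bases there cannot be assigned to either motif.

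Cldn5 encodes claudin-5, the main sealing protein of endothelial tight junctions in the brain. The gene is short, at chr16:18776847-18778262 on the plus strand. Replicate 1 had no promoter call at Cldn5 in either list. Replicate 2 had a lenient call with a signal value of 0.670 at chr16:18777664-18777761, inside the gene and 0.866 kb downstream of the TSS, at percentile 5.98 of called promoters. Its only shared distal DHS, at chr16:18798947-18799120, lay 22.2 kb downstream in an intron of Cdc45, with 0.957 in replicate 1 and 1.82 in replicate 2. Cdc45, a replication factor gene, and Ufd1 share a promoter DHS downstream of Cldn5 with values of 1.36 and 2.29.

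Pecam1 and Emcn are surface glycoproteins of endothelial cells. Pecam1 (PECAM-1 or CD31), at chr11:106654217-106750628 on the minus strand, is an adhesion molecule at endothelial cell contacts that platelets and leukocytes also carry. It had 5 annotated start sites and no promoter call at any of them. Its locus nevertheless held 4 shared distal DHSs, the most of the 10 genes, and 93.5% of all protein-coding genes had fewer. That rank takes no account of locus length, which was 196.4 kb, against a median of 117.4 kb over all genes. Per 100 kb the locus held 2.04 such sites, against a median of 0.526. Counted from the upstream end of the gene, 3 of the 4 sites lay in Pecam1 introns at 13.2 kb, 72.4 kb and 92.4 kb. The remaining site lay beyond the 3′ end of the gene at 122.7 kb. Signal values at these sites were 0.789, 0.803, 1.03 and 0.822 in replicate 1 and 1.27, 2.39, 2.17 and 1.61 in replicate 2, in the same order. The site at 92.4 kb (chr11:106658096-106658370) had the highest mean percentile of these 4.

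The central 200 bases of that Pecam1 site are shown as its shared distal DHS with the highest mean percentile over the libraries. In replicate 2 alone the site at 72.4 kb had the higher value. Capitals mark bases inside a footprint of both libraries (RefSeq GRCm38.p6, plus strand).
Pecam1 distal, chr11:106658133-106658332: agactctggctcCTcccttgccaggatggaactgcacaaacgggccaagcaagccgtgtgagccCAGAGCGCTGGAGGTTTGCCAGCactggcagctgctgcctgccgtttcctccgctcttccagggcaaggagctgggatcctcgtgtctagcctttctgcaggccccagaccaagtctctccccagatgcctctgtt
The window held 25 such bases, and its closest match to the CTCF consensus, with 3 mismatches, lay outside all footprints. The site 13.2 kb into the gene held ACAATG, a SOX core, which occurred in 7.43% of all shared distal DHSs.

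Emcn (endomucin), a sialomucin of capillaries and veins, lies at chr3:137341067-137432185 on the plus strand. Its locus had 0 stricter calls in replicate 1 and 2 in replicate 2, both distal, at chr3:137322461-137322575 (0.473) and chr3:137479976-137480183 (0.725). These values stood at percentiles 6.07 and 17.0 of the stricter calls of replicate 2. The lenient lists shared a site 27.0 kb downstream of the TSS in an Emcn intron, with 0.294 and 0.394, and the site 139 kb downstream, with 0.490 and 0.725. No gene other than Emcn has a protein-coding TSS in this locus.

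Tek and Tie1 encode the endothelial receptor tyrosine kinases TIE2 and TIE1, and TIE2 is the receptor of the angiopoietins, which steady or loosen vessels. Tek, at chr4:94739289-94874976 on the plus strand, had 0 calls of either list in either library over its 235.7 kb locus. Such an empty locus was found at 1 of the 10 vascular genes, against 8.29% of all protein-coding genes. The authors' file of the cut rate, which lists bases with a false discovery rate under 0.05, also listed 0 bases of the Tek locus in both libraries. The Tek locus holds no protein-coding start site other than its own.

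Tie1, at chr4:118471191-118490061 on the minus strand, had no promoter call. Its locus held 4 stricter calls in replicate 1 and 2 in replicate 2, and the only distal call among them was 1 of replicate 1 with 0.663. The lenient lists shared that site, with 0.663 in replicate 1 and 0.796 in replicate 2. The window upstream of the Tie1 TSS held GTAAACA, a forkhead core present in 2.00% of all upstream windows, and ACAATG, the SOX core present in 7.15%. AGGAAGT or CGGAAGT, cores of ETS factors, which bind many endothelial promoters, were found upstream of 1 of the 10 genes, Pecam1, against 11.3% of all upstream windows.

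Sox18, a SOX transcription factor of endothelial and early lymphatic cells, lies at chr2:181669836-181671640 on the minus strand. Its promoter was called in the lenient lists of both libraries but at separate places. The replicate 1 call, at chr2:181671177-181671308 with 0.640, lay inside the gene, and the replicate 2 call, at chr2:181671503-181671729 with 0.937, spanned the TSS. They stood at percentiles 11.2 and 11.1 of called promoters. In the cut-rate files 110 bases of the promoter window were listed in replicate 1 and 210 in replicate 2, with lowest false discovery rates of 0.0235 and 0.00625. Of its 5 neighbouring genes, Tcea2 and Rgs19 had a shared promoter DHS.

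Vtn, the first of the pericyte genes, encodes vitronectin, a secreted glycoprotein that brain pericytes make in quantity and that the liver supplies to plasma. The gene lies at chr11:78499091-78502324 on the plus strand, among 8 other genes with a start site in its locus, 7 of which had a shared promoter DHS. No call lay within 1 kb of the Vtn TSS. The nearest DHS, at chr11:78497681-78497960, was the promoter of Sarm1, an axon degeneration gene, with 1.74 in replicate 1 and 7.54 in replicate 2. The only shared distal DHS of the locus lay 10.8 kb upstream of the Vtn TSS in an intron of Sarm1, with 1.19 in replicate 1 and 2.84 in replicate 2, at percentiles 77.9 and 75.1 of stricter calls.

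This Vtn site (chr11:78488261-78488460) is shown as the only shared distal DHS of its locus. It held 50 bases inside footprints of both libraries, the most of the distal windows printed here. Capitals mark them (RefSeq GRCm38.p6, plus strand).
Vtn distal: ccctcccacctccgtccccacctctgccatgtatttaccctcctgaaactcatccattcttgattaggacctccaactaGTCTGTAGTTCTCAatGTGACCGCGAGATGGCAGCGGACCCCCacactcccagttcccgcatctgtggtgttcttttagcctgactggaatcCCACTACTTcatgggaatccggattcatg
The capitals include the closest match to the CTCF consensus, at chr11:78488360-78488371 with 2 mismatches, all 12 bases of which were footprinted in both libraries. Matches with 2 mismatches were not counted over all shared distal DHSs, of which 43.8% already match with up to 1. The closest matches at the Pecam1 sites at 122.7 kb and 72.4 kb also had 2 mismatches, with 12 and 0 bases footprinted in both libraries.

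Pdgfrb encodes the receptor beta of platelet-derived growth factor, through which pericytes are drawn to new vessels. It lies at chr18:61045150-61085061 on the plus strand. Its promoter had a lenient call of replicate 1 at chr18:61045075-61045211 with 0.654, at percentile 11.9 of called promoters, and none of replicate 2. The locus held 2 shared distal DHSs. The stronger, at chr18:61068481-61068680 in a Pdgfrb intron 23.4 kb downstream of the TSS, had 2.42 in replicate 1 and 3.94 in replicate 2, the highest distal values of the 10 loci. These stood at percentiles 96.8 and 83.0 of the stricter calls. The other, at chr18:61039901-61040088, lay 5.16 kb upstream of the TSS, with Cdx1 as the nearest start site, and had 1.06 and 1.43. Both sites matched the CTCF consensus without mismatch, and all 12 bases of each match lay in footprints of both libraries. The promoters of its neighbours Slc6a7, Cdx1 and Csf1r, the last a receptor gene of microglia, had no shared call, although Slc6a7 and Cdx1 are CpG-richer.

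Rgs5 encodes a regulator of G-protein signalling that marks pericytes and vascular smooth muscle. It lies at chr1:169655501-169695813 on the plus strand. Its promoter was the weakest of those called in both libraries. The lenient calls at the TSS had 0.406 in replicate 1 and 0.488 in replicate 2, at percentiles 2.92 and 2.79 of called promoters. They overlapped within chr1:169655301-169655560. A second lenient call of replicate 1 with 0.346 followed directly downstream. The locus held no other call, and the bases listed in the cut-rate files, 308 in replicate 1 and 274 in replicate 2, were all at the promoter.

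**Figure D2:**
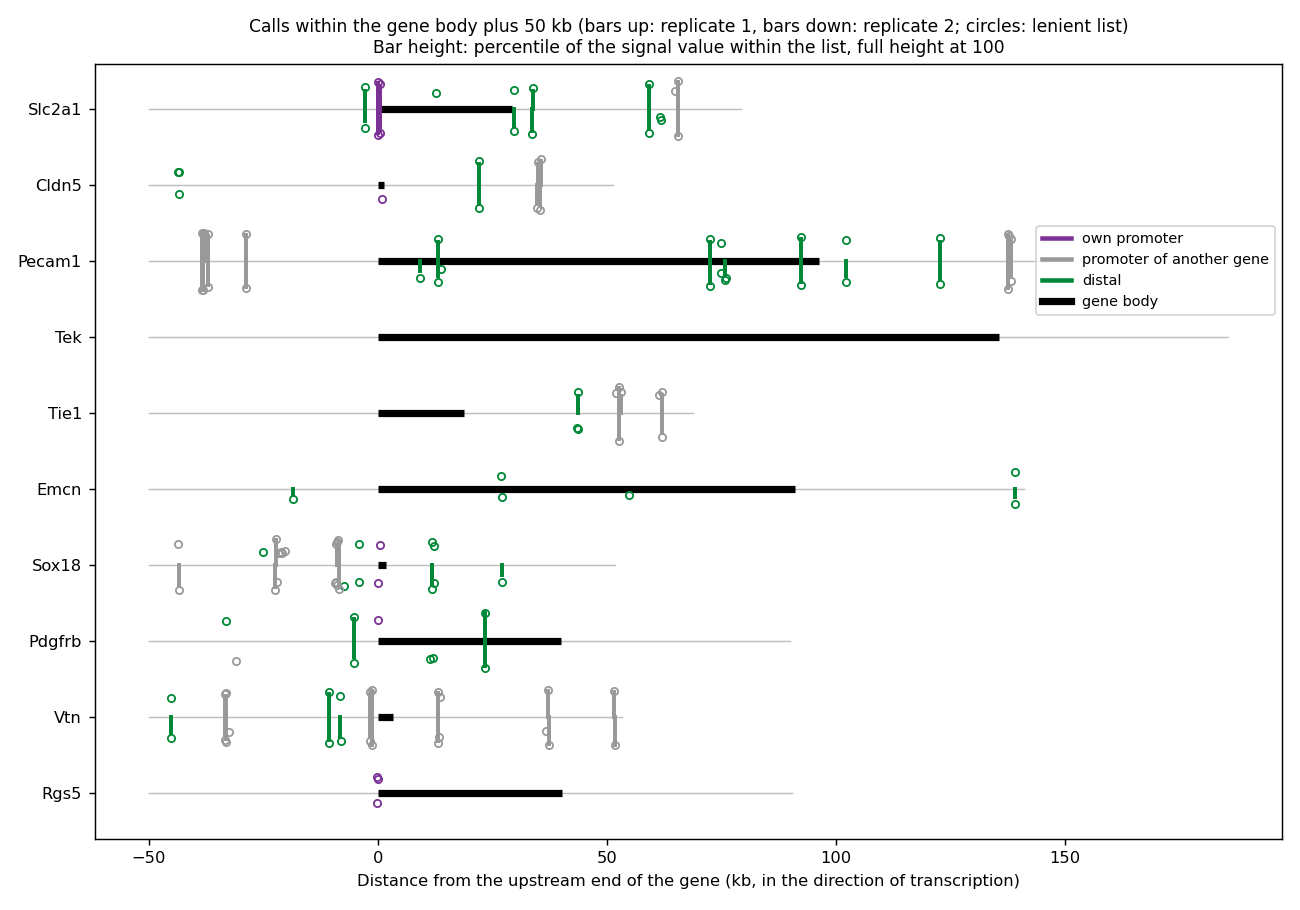
Calls across the 10 loci by distance from the upstream end of the gene in kb, with replicate 1 above and replicate 2 below each line, bars for stricter calls, circles for lenient calls, heights for the percentile within the list and colours for the kind of site. Tek has no call, Rgs5 has calls only at its start, and Pecam1 has 4 distal positions with bars in both directions.

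The cut-rate files show how close the uncalled promoters came. At Slc2a1, 958 bases of the promoter window in replicate 1 and 934 in replicate 2 had a false discovery rate under 0.001. At Rgs5 this held for 0 bases in replicate 1 and 11 in replicate 2, with lowest rates of 0.00387 and 0.000905. At Vtn 20 bases had a rate under 0.001 in replicate 1 and 0 in replicate 2, at the edge of the window towards Sarm1. Sox18, Pdgfrb, Cldn5 and Tie1 had listed bases with no rate under 0.001, the last pair in 1 library each, with 67 bases in replicate 2 at Cldn5 and 41 in replicate 1 at Tie1. Pdgfrb had 105 and 35 listed bases, with lowest rates of 0.0122 in replicate 1 and 0.0378 in replicate 2. No base of the promoter windows of Pecam1, Tek and Emcn was listed in either library. Among all protein-coding genes 64.2% had a listed base in the window in replicate 1 and 65.6% in replicate 2, with medians of 604 and 679 bases over all genes.

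**Figure D3:**
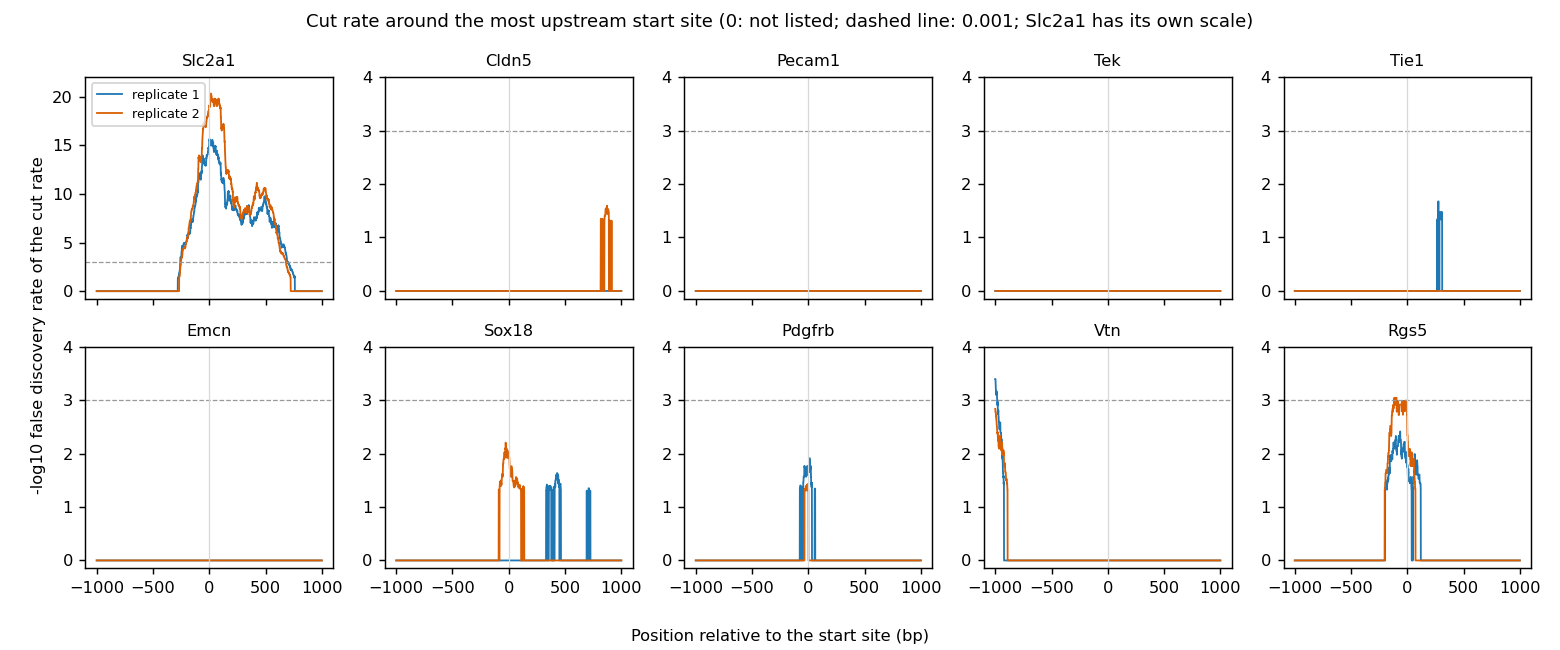
False discovery rate of the cut rate (as -log10, so higher is more significant, 0 where not listed) against position in bp from the most upstream TSS of each gene, in replicate 1 and replicate 2, with a dashed line at 0.001 and a separate scale for Slc2a1. Slc2a1 alone rises far over the line in both libraries, Rgs5 in replicate 2 (11 bases) and the edge of the Vtn window in replicate 1 (20 bases) just reach it, and Pecam1, Tek and Emcn stay at 0.

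A shared distal DHS was present in 5 of the 10 loci, Slc2a1, Cldn5, Pecam1, Pdgfrb and Vtn, against 54.3% of the loci of all protein-coding genes. The 10 loci held a median of 0.5 shared distal DHSs, against 1.0 over all genes with quartiles of 0 and 2, or 0.484 per 100 kb of locus against 0.526. The loci of the 7 endothelial genes accounted for 7 of the 10 sites, 4 of them at Pecam1, and those of the 3 pericyte genes for 3. Signal values of the 10 sites ran from 0.752 to 2.42 in replicate 1, with a median of 0.992, against a median of 0.962 over all 11428 shared distal DHSs. In replicate 2 they ran from 1.00 to 3.94 with a median of 1.86, against 1.80. Their median width was 200 bp, against 215 bp, and the median number of footprints per site was 2 in replicate 1 and 3 in replicate 2 in both sets. Their nearest start site often belonged to another gene, such as Tex2 at 2 of the Pecam1 sites, Zfp691 at Slc2a1 or Cdx1 at Pdgfrb, and the files do not say which gene a site acts on.

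**Figure D4:**
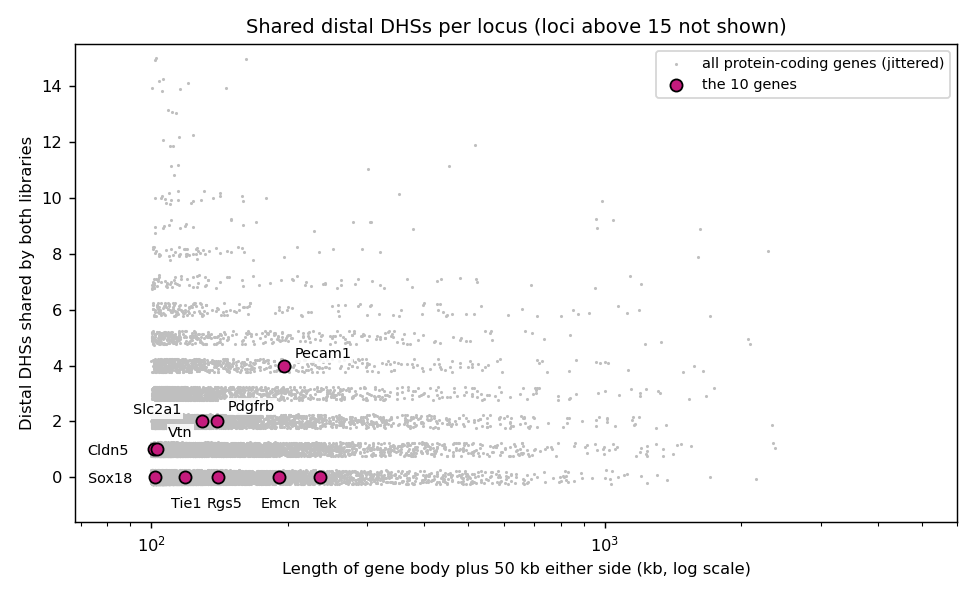
Number of distal DHSs shared by both libraries in a locus against the length of the locus in kb (log scale), for the 10 genes (large labelled points) and all protein-coding genes (small points, shifted at random up or down; 14 loci above 15 sites are not shown). Pecam1 lies at 4, Slc2a1 and Pdgfrb at 2, Cldn5 and Vtn at 1, and the other 5 genes at 0.

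Known motifs were sought as exact letters on both strands in the central 200 bases of these sites and in the 200 bases upstream of each gene. The CTCF consensus matched 2 of the 10 distal sites, both at Pdgfrb, against 18.3% of all shared distal DHSs. With up to 1 mismatch, a setting chosen after the footprints had been seen, it matched 4 of 10 (with Slc2a1 and Cldn5), against 43.8% of all shared distal DHSs and 2.54% of windows 2 kb to either side of them. The letters AGATAAG, read by GATA factors, CTTTGAT, read by TCF and LEF factors, and TGANTCA, read by AP-1, occurred in 0 of the 10 upstream windows and 0 of the 10 distal sites, against 1.77%, 2.14% and 4.66% of all upstream windows and 1.19%, 2.00% and 4.51% of all shared distal DHSs. The short E-box CANNTG was found in 6 of 10 upstream windows, against 54.7%, and in 8 of 10 distal sites, against 67.2%. The absence of a match says only that these letters are not in the window.

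The genes beside the members were counted in the same way. Across the 10 loci, 28 other protein-coding genes had a start site, and 18 of them had a promoter DHS in both stricter lists, against 55.6% of all protein-coding genes. Among the neighbours 19 were CpG-richer, and 17 of these had one, against 90.6% of CpG-richer genes in all. The neighbours with the highest values were Ddx5, an RNA helicase gene, and Cep95, which share a promoter upstream of Pecam1 with 3.23 in replicate 1 and 10.2 in replicate 2. Zfp691, beside Slc2a1, had 2.21 and 4.58, and Cdc20, beside Tie1, had 1.51 and 5.39.

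Other genes of the vasculature were described by lists chosen for this purpose, with earlier results of these data known. Of angiogenic receptors and ligands, 8 of 18 had a promoter DHS in both stricter lists, against 55.6% of all protein-coding genes, the share beside which each list here is to be read. Among them was Vegfa, the growth factor that drives vessel sprouting, at 2.01 in replicate 1 and 4.56 in replicate 2. Of endothelial transcription factors, 8 of 14 had one, with Klf4 at 1.61 and 5.10 and Ets1 at 2.00 and 3.13, while Fli1 and Foxq1 had none. Genes of blood-brain barrier transport and junctions had 10 of 13. They included the amino acid transporter Slc7a5, at 2.37 and 7.99, and the transferrin receptor Tfrc, at 1.70 and 7.39, whereas Plvap, a gene of fenestrated endothelium, and the organic anion transporter Slco1a4 had none. Of endothelial adhesion and surface genes, 3 of 9 had one, with Egfl7 at 1.23 and 2.39, and Esam and Icam2 had none. Mural cell genes, those of pericytes and smooth muscle, had 3 of 15. Notch3 stood at 1.26 and 3.26 and Myh11 at 0.570 and 1.06, while Abcc9 and Acta2 had none. Many of these genes are used by cell types other than vascular cells. Members of the lists with CpG-richer promoters were called at 7 of 12, 7 of 10, 7 of 7, 1 of 1 and 1 of 5, in the order given, against 90.6% of CpG-richer genes in all. The remaining calls of each list were at CpG-poorer members, to be read beside 23.9% of CpG-poorer genes in all. With the lenient calls of both libraries the share of all genes was 61.4%. The counts were then 13 of 18, 9 of 14, 10 of 13, 4 of 9 and 7 of 15, in the same order. Angiogenic receptors and ligands had stricter calls at 9 of 18 in replicate 1 alone, against 57.0% of all genes. In replicate 2 alone they had 12 of 18, against 60.2%.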

How the data were processed

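DNase-seq was measured in 2 libraries of 1 group. Per the file headers, coordinates are mm10 and each library has files of its own. The sources used here do not name the aligner or the caller, nor how reads of the CAST/EiJ allele were aligned to the reference. The deposited peak lists give the authors' signal value, a density in steps of 0.00467 and 0.00788, which would stand for 1 tag at 214 and 127 times 1000000 tags. The deposited cut-rate files give false discovery rates (q-values), listed only under 0.05. The footprint files carry 0.01 on every line, used as intervals only. Stricter calls overlapped a lenient call in 96.2% and 98.6% of cases.

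Calls were joined to loci, start sites and footprints with Python 3.11.15, pandas 2.3.3, numpy 2.4.6 and pysam 0.24.0, and interval code was tested on simulated data. With 1 group no test between conditions was possible: counts and values are descriptions, and the libraries give the spread. The labels number the animals, which is all that marks them as separate. The members, lists and motifs were chosen with earlier results of these data known. Named genes are the 10 members, neighbours in their loci and, per list, up to 2 with the highest promoter rank and up to 2 without a call; sequences come from the shared site with the highest mean percentile at Slc2a1, Cldn5, Pecam1 and Vtn, plus the additions named in the text, and no Pdgfrb site is printed. Alternatives covered lists, windows, overlap, locus size and each library alone.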

Additional observations from a re-analysis of the deposited data

How the results depend on the processing

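The promoter count of 1 (Slc2a1) became 2 in the lenient lists, with Rgs5, against 61.4% of all genes. It became 2 in a promoter window of 2.5 kb, with Vtn, against 57.3%, and the added DHS of Vtn is the Sarm1 promoter. It was 1 in each single library, at 0.5 kb, without calls under the lower quartile and with an overlap of 50% of the shorter call. The shares of all genes in these settings were 54.4% to 60.2%. The 10 shared distal DHSs became 21 in the lenient lists, 12 in replicate 1 alone and 22 in replicate 2 alone, and 21 within 100 kb; the other settings gave 8 to 11. The 5 loci with such a site became 8 in the lenient lists, against 70.6% of all genes. In the other settings they were 5 to 7, against shares of 40.6% to 69.2% of all genes. The count of 1 promoter with footprints in both libraries became 2 at 2.5 kb, with Vtn, against 62.1% of all genes. It was 2 in replicate 1 alone (with Rgs5), against 61.5%, and 3 in replicate 2 alone (with Cldn5 and Sox18), against 63.7%. The 2 distal sites with the CTCF consensus became 4 with up to 1 mismatch, a setting chosen after seeing the data. The shares of all shared distal DHSs were 18.3% and 43.8%. By construction, longer lists and larger loci let more sites in, and a wider promoter window lets more promoter calls in. The wider promoter window also takes distal sites away. No paired analysis was possible because there is only 1 group. Depth is implied and not stated. At an uncalled promoter no call was made in these bulk libraries, which does not show that it is closed. Whether depth or the fraction of vascular cells limited the calls was not tested.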

Other observations

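Some sites of the member loci were called in 1 library only, or only in the lenient lists. At Sox18 the stricter list of replicate 2 had 2 distal calls, 11.9 kb and 27.1 kb downstream of the TSS, with signal values of 1.93 and 0.874, and the lenient list of replicate 1 had the first of them with 0.817. At Pdgfrb the lenient list of replicate 2 had 2 calls inside the gene 11.3 kb and 12.1 kb downstream with 0.945 and 0.843, and neither was in a list of replicate 1. At Cldn5 both lenient lists had a site 43.4 kb upstream, with 0.313 in replicate 1 and 0.449 in replicate 2. The share of the locus listed in the cut-rate files was 5.11% in replicate 1 and 5.82% in replicate 2 at Vtn, the highest of the 10 loci, and 0.220% and 0.195% at Rgs5, against medians of 1.84% and 1.95% over all protein-coding genes.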
